A study of Mus musculus with 35 samples.

Results

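The enzymes of mitochondrial fatty acid oxidation were followed by their genes' read counts in mouse embryonic fibroblasts (MEFs) that kept or lost endogenous Nelfb, with or without an added NELFB construct. The 10 genes, Cpt1a, Cpt2, Acadm, Acadl, Acadvl, Hadha, Hadhb, Hadh, Acaa2 and Etfa, were taken by name from the 24421 genes that each count file lists, and all 10 had enough reads to be tested. In the populations with an empty vector, loss of Nelfb went with a higher level of Cpt1a and lower levels of Acadm and Hadha, and the other 7 genes did not pass the test. These 3 calls of 10 stood where 11.8% of all genes were called, and that of Hadha was lost when either of 2 libraries was left out. In populations that carried added wild-type NELFB before and through that loss, none of the 10 passed, in a comparison in which 0.0217% of all genes did. Cpt1a, Acadm and Hadha still moved the same way there, with no overlap between the groups. Tested directly, the change differed between wild-type NELFB and empty vector for 0 of the 10, where it did for 0.681% of all genes. With replicate numbers taken into account it differed for Cpt1a and Acadm, where it did for 13.4% of all genes.

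Fatty acids are burned in the mitochondrial matrix. The outer membrane enzyme CPT1 joins the activated acyl chain to carnitine, a translocase carries the acylcarnitine inward, and CPT2 on the inner membrane restores the acyl-CoA. Each turn of the oxidation spiral then takes an acyl-CoA through a dehydrogenase, a hydratase, a second dehydrogenase and a thiolase, which releases acetyl-CoA, while electrons from the first dehydrogenase pass through the electron transfer flavoprotein to the respiratory chain. Entry through CPT1 is the step at which malonyl-CoA, a precursor of fatty acid synthesis, is known to restrain the pathway, and fibroblasts grown in glucose are not known as cells that rely on it.

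The study used immortalized Nelfb flox/- MEFs, which carry 1 null and 1 floxed allele of Nelfb, the gene of a subunit of the negative elongation factor NELF that holds RNA polymerase II near promoters. Populations carried pLenti empty vector (EV) or C-terminally flag-tagged mouse NELFB as wild type (WT), MT194, MT486 or the double mutant DMT, which joins the MT194 and MT486 changes, and each received Ad-Cre (labelled Ad-Cre-GFP, the Cre groups) or Ad-GFP (the GFP groups) for 7 days, with 2 libraries in each of the 10 groups. By the study's account the constructs were introduced before the adenovirus, MT194 no longer binds NELFA and NELFC and stays largely in the cytoplasm, and MT486 no longer binds NELFE. A further 15 libraries came from single clones isolated after Ad-Cre, 3 each with pLenti WT, MT194 or MT486 and 3 each with pBabe WT(N48) or Δ-C60, the latter a truncation of the C terminus.

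Every cell in the series thus descends from the same floxed line, so the GFP groups already have a single intact Nelfb allele, and a clone is 1 cell's progeny rather than a sample of the population. The study describes the population libraries of EV, WT, MT194 and MT486 as coming from independent experiments, and for DMT this is not stated in the sources used here. Reads on genes numbered 17969149 to 29080007 per population library (median 21617290.5) and 18413284 to 27816723 per clone library (median 20933014). Levels below are CPM, the counts scaled to library size by edgeR after TMM normalization, and in bulk RNA fewer cells expressing a gene and less RNA per cell cannot be told apart.

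Nelfb itself was read first, because it checks the labels, although its reads include those of the added construct. EV-Cre had 7.97 and 5.46 CPM in replicates 1 and 2, and EV-GFP had 46.1 and 39.5 CPM. The log2 fold change was −2.67 (SE 0.22, adjusted p = 2.53e-05, quasi-likelihood test of edgeR, adjusted by Benjamini-Hochberg over all genes tested, as for every adjusted p here unless another tool is named). In the WT populations the level was 75.9 and 60.5 CPM with Ad-Cre and 97.5 and 82.8 CPM with Ad-GFP, and in DMT 169 and 208 CPM against 73.5 and 61.6 CPM, so the constructs were read at or above the level of the EV-GFP cells. Among clones, the libraries labelled WT had 10.3, 109 and 15.5 CPM of Nelfb, and clones 1 and 3 of that label were below every EV-GFP library. The other 12 clone libraries had 56.3 to 247 CPM.

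Markers of the cell type were those of fibroblasts with gaps. Of the fixed fibroblast list the summed level was 21724 to 50325 CPM over the population libraries, with Fn1 (fibronectin) the most abundant gene at 8543 to 26336 CPM, while Thy1 was at most 0.114 CPM and Lum at most 3.17 CPM. Summed markers of epithelium (at most 1.29 CPM), endothelium (at most 1.25 CPM) and skeletal muscle (at most 0.0901 CPM) were near 0, and those of macrophages came to 3.56 to 9.56 CPM. The adipocyte list summed to 44.7 to 118 CPM, nearly all of it the fatty acid binding protein Fabp4 at 44.5 to 118 CPM, with Adipoq, Plin1, Cidec and Lep at or below 0.144 CPM. Fabp4 was at 68.9 and 44.5 CPM in EV-Cre and at 105 and 83.4 CPM in EV-GFP, and its part in the results below was not tested. The fibroblast sum was 24691 and 38230 CPM in EV-Cre and 23632 and 33723 CPM in EV-GFP, and a single gene of that list, S100a4, passed the test there, at 19.96 and 17.8 CPM against 41.0 and 63.4 CPM.

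Cpt1a and Acadm were the members that moved farthest among the populations, and their start regions are printed because they moved in opposite directions. Cpt1a lies on chromosome 19 from 3322334 to 3385733 of mm10 on the plus strand and Acadm on chromosome 3 from 153922357 to 153944632 on the minus strand (GENCODE annotation). The stretches below come from RefSeq's promoter table (GRCm38.p6) and lie before each RefSeq start site. That of Cpt1a is at chr19:3323051-3323284 on the plus strand, which falls in the first intron of a longer Cpt1a transcript. It holds 234 bases and stops short of the start site. That of Acadm is at chr3:153944644-153944893 on the minus strand, outside any annotated exon, and its 250 bases run up to the start site. Capitals mark letters that match a searched motif.
Cpt1a: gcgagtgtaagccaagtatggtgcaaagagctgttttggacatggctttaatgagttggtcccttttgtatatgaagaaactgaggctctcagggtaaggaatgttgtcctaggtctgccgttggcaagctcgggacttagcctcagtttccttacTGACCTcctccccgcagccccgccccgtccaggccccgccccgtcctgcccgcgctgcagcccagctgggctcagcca
Acadm: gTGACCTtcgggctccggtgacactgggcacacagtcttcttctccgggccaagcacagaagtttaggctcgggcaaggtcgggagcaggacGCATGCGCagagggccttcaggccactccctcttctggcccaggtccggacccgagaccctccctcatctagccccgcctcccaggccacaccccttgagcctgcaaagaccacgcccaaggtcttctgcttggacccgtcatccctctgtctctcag

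Both stretches hold TGACCT, which is AGGTCA, the letters of a single nuclear receptor site, on the other strand. Windows of 250 bases before and 50 after the start were searched on both strands for 9 of the 10 members. AGGTCA was in 3 of the 9 (Acadm, Acadvl and Cpt1a) and in 16.3% of 32851 RefSeq promoters of the same length. The repeat bound by PPAR with RXR, a pair of AGGTCA with any 1 base between them, was in 0 of 9 (0.0396% of all promoters) and the ERR site TCAAGGTCA in 0 of 9 (0.423%), and both of these contain AGGTCA. Of the letters bound by NRF1, GCATGCGC with GC before it was in 0 of 9 (0.971%) and GCATGCGC alone in 2 of 9 (Acadm and Etfa, against 2.71% of all promoters). A match describes the letters and is not a bound site, and no match says only that the letters are not in the window.

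Hadha and Hadhb, the subunits of the trifunctional protein, sit head to head on chromosome 5, Hadha from 30118304 to 30155162 on the minus strand and Hadhb from 30155248 to 30184593 on the plus strand, with RefSeq start sites 273 bases apart. The bases between the genes that lie in the promoter windows of both, chr5:30155163-30155230, hold no match to the motifs and are shown because the pair shares them. They stop where the window of Hadha ends, short of the first exon of Hadhb.
Hadha and Hadhb, plus strand: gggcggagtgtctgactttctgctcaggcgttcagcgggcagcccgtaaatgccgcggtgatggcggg

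Levels of the members in cells that kept Nelfb were compared per length, as the mean CPM of the 10 GFP libraries per kilobase of all exons of the gene. Acadl (long-chain acyl-CoA dehydrogenase) and Acaa2 (the thiolase) stood highest, at 44.7 and 43.4 CPM per kilobase. Acadm and Etfa followed at 21.6 and 21.2, then Cpt1a at 16.2, Hadha at 14.7, Hadh at 14.3, Cpt2 at 13.2 and Acadvl at 13.1 CPM per kilobase. Hadhb was at 1.41 CPM per kilobase. Without the length the order differed, with Hadha first at 129 CPM, Cpt1a at 124 CPM and Hadhb last at 9.29 CPM.

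The low level of Hadhb is read with caution, since 61.5% of its 1999 possible 50-base reads also occur in transcripts of the processed pseudogene Gm13910, and reads that map to more than 1 place were skipped in the counting. Only 32.0% of the 50-base windows of Hadhb lie within 1 exon and in no other gene's transcripts. For Acadvl that share was 32.9%, and 24.0% of its windows are shared with Dvl2, which overlaps it on the opposite strand. Reads from that shared stretch could not be assigned to 1 of these genes if the counting ignored strand. For the other 8 members the share was 57.4% to 91.6%. Levels per 1000 windows of that kind, a scale added after the data were seen, put Hadhb at 14.5 CPM, beside Cpt2 at 14.8 CPM, and left Acadl first at 65.1 CPM. The middle of the order moved on that scale, with Hadh at 51.0, Etfa at 50.6, Acadvl at 50.5 and Hadha at 42.6 CPM above Cpt1a at 36.5 CPM, so the order of those members depends on the scale.

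**Figure D1:**
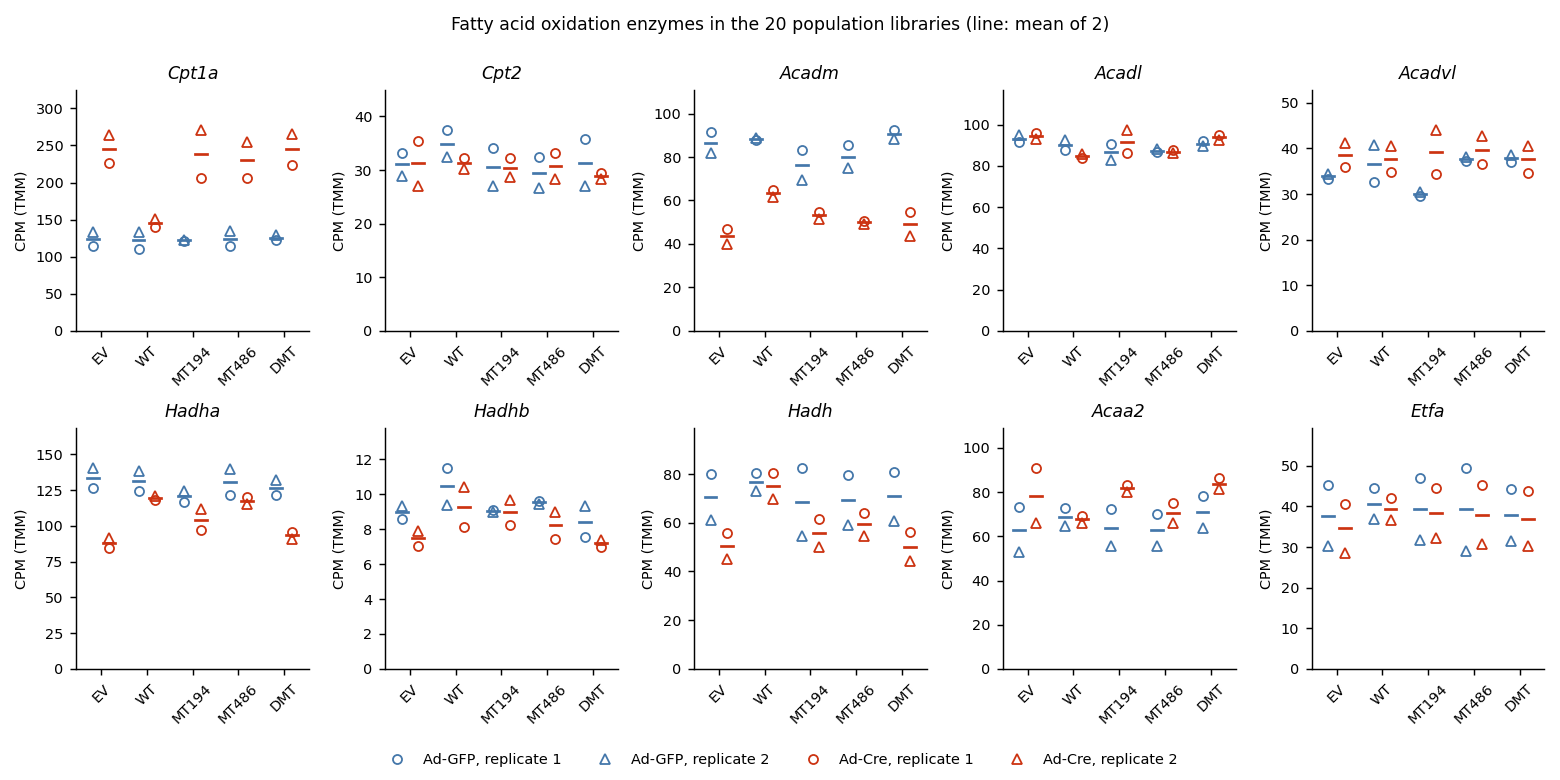
CPM of each of the 10 genes (vertical axis, 1 panel per gene, axes starting at 0) in the 20 population libraries, grouped on the horizontal axis by construct, with Ad-GFP in blue and Ad-Cre in red, circles for replicate 1, triangles for replicate 2 and a line at the mean. Cpt1a is high (206 to 270 CPM) in the 8 Cre libraries without wild-type NELFB, and Acadm is low (40.0 to 54.9 CPM) in the same libraries.

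Over the 10 population groups the members differed in how far they ranged. The highest and lowest group means were apart by 1.06 (log2) for Acadm and 1.01 for Cpt1a. Hadh ranged over 0.62, Hadha 0.60, Hadhb 0.53, Acaa2 0.43 and Acadvl 0.40. Cpt2 (0.27), Etfa (0.25) and Acadl (0.16) were flattest, and Acadl lay between 83.1 and 97.3 CPM in every population library. Over the 20 libraries Cpt1a and Acadm had a Pearson r of −0.94, a description of libraries that share groups and replicate numbers.

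The carnitine step gave the clearest rise after loss of Nelfb. Cpt1a encodes the liver-type CPT1, the enzyme of the rate-setting entry step. It was at 227 and 264 CPM in EV-Cre and at 114 and 134 CPM in EV-GFP. Both EV-Cre libraries lay above both EV-GFP libraries, and within replicates 1 and 2 the ratio was 1.98 and 1.97. The log2 fold change was 0.98 (SE 0.18, adjusted p = 0.00367). Cpt2, the partner enzyme inside the mitochondrion, was at 35.4 and 27.1 CPM in EV-Cre and at 33.2 and 28.9 CPM in EV-GFP, with overlapping groups and a log2 fold change of 0.01 (SE 0.19, adjusted p = 0.984). The muscle-type Cpt1b was at most 0.8 CPM in any population library.

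Among the acyl-CoA dehydrogenases, 1 of 3 passed. Acadm encodes MCAD, which acts on medium chains. It was at 46.9 and 40.0 CPM in EV-Cre and at 91.6 and 81.7 CPM in EV-GFP, with both EV-Cre libraries below both EV-GFP libraries. Its log2 fold change was −0.995 (SE 0.14, adjusted p = 0.000603). Acadl, for long chains, had a log2 fold change of 0.02 (SE 0.10, adjusted p = 0.933), and Acadvl, for very long chains, 0.18 (SE 0.16, adjusted p = 0.513).

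Of the trifunctional protein, which carries the later steps for long chains, the alpha subunit gene Hadha fell. It had 84.3 and 91.8 CPM in EV-Cre and 127 and 140 CPM in EV-GFP, without overlap, and a log2 fold change of −0.60 (SE 0.13, adjusted p = 0.00773). This call was lost without EV-Cre replicate 1 (adjusted p = 0.0618) or EV-GFP replicate 2 (adjusted p = 0.0685). Hadhb, the beta subunit gene, had a log2 fold change of −0.26 (SE 0.18, adjusted p = 0.381), on 145 to 259 reads per population library.

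The remaining members did not pass in EV. Hadh, the dehydrogenase for medium and short hydroxyacyl-CoA, was at 56.0 and 45.2 CPM in EV-Cre and 80.2 and 61.1 CPM in EV-GFP, and its log2 fold change was −0.48 (SE 0.24, adjusted p = 0.220). Acaa2 had 90.8 and 66.1 CPM in EV-Cre and 73.1 and 53.0 CPM in EV-GFP, and a log2 fold change of 0.32 (SE 0.20, adjusted p = 0.353). For Hadh the replicate 1 libraries were the higher in both groups and the groups did not overlap, whereas for Acaa2 EV-Cre replicate 2 lay below EV-GFP replicate 1. Etfa, the alpha subunit of the electron transfer flavoprotein, had a log2 fold change of −0.12 (SE 0.33, adjusted p = 0.866). Hadh and Acaa2 also had an adjusted p under 0.05 with the replicate as a block, but stayed under the fold threshold of 0.5.

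In all, 3 of the 10 members were called in EV, 1 higher and 2 lower. A call needed an adjusted p under 0.05 and a log2 fold change beyond 0.5 in size, and 11.8% of the 13805 genes tested met this, 5.84% higher and 5.94% lower. The median log2 fold change of the members was −0.06 and that of all genes tested 0.00. With the replicate as a block the same comparison called 3 of 10, where 25.4% of all genes were called. Fitted on its 4 libraries alone, which leaves fewer samples for the spread, it called 0 (adjusted p = 0.108 for Cpt1a, 0.0709 for Acadm and 0.211 for Hadha). The share of all genes called in that fit is not given here, so this 0 is not read as particular to the members.

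**Figure D2:**
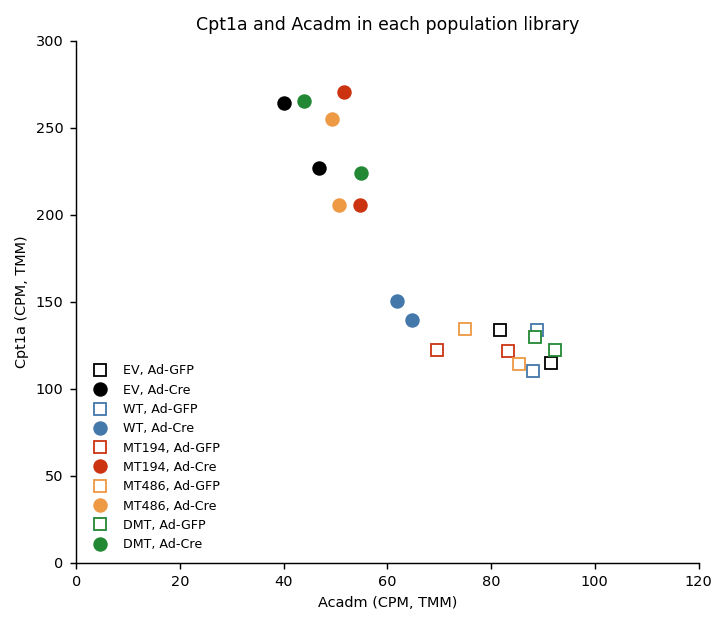
CPM of Acadm (horizontal axis) and CPM of Cpt1a (vertical axis), both axes starting at 0, 1 point for each of the 20 population libraries, by construct and virus. The 10 GFP libraries lie at 110 to 134 CPM of Cpt1a and 69.5 to 92.3 CPM of Acadm, and the WT-Cre libraries lie between them and the other Cre libraries.

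The constructs show whether NELFB, whole or mutated, leaves these levels where the GFP cells have them. Over the 10 GFP libraries Cpt1a had a lowest value of 110, a median of 122 and a highest of 134 CPM, and over the 8 Cre libraries of EV, MT194, MT486 and DMT the values were 206, 241 and 270 CPM. The WT-Cre libraries had 139 and 151 CPM, above all GFP libraries and below the 8 others. Acadm ran the other way, with 69.5, 86.7 and 92.3 CPM over the GFP libraries, 40.0, 49.996 and 54.9 CPM over the 8 Cre libraries, and 64.8 and 61.8 CPM in WT-Cre. Both genes thus had WT-Cre values in the gap between those sets of libraries.

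With wild-type NELFB, 0 of 10 members were called with Ad-Cre against Ad-GFP, where 0.0217% of all genes were called. Without adjustment 1 member had p under 0.05 by edgeR (6.22% of all genes), and DESeq2 called 0 of 10, where it called 0.309% of all genes. Later counts of 0 by DESeq2 that stand without its share of all genes are not read as particular to the members. Cpt1a had 139 and 151 CPM in WT-Cre and 110 and 134 CPM in WT-GFP, and a log2 fold change of 0.25 (adjusted p = 0.990). Acadm had 64.8 and 61.8 CPM against 88.0 and 88.9 CPM, and a log2 fold change of −0.48 (adjusted p = 0.474). Its groups did not overlap, and with the replicate as a block its adjusted p was 0.00392 at a log2 fold change of −0.49, still under the fold threshold. Hadha had a log2 fold change of −0.14.

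In MT194 populations Cpt1a was the 1 member called, where 4.22% of all genes were called. It had 206 and 270 CPM in MT194-Cre and 122 and 122 CPM in MT194-GFP, a log2 fold change of 0.96 (SE 0.18, adjusted p = 0.00926). The lower Cre library stood well above both GFP libraries, yet the call was lost without MT194-Cre replicate 2 (adjusted p = 0.0760), MT194-GFP replicate 1 (0.0819) or MT194-GFP replicate 2 (0.0669), and with the 4 libraries fitted alone (0.349). Acadm had 54.8 and 51.7 CPM against 83.2 and 69.5 CPM, with a log2 fold change of −0.52 (SE 0.14, adjusted p = 0.0525). With the replicate as a block 2 members were called, where 14.5% of all genes were, and Acadm was the second (−0.52, adjusted p = 0.000238).

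In MT486 populations 2 of 10 members were called, where 2.42% of all genes were. Cpt1a had 206 and 255 CPM in MT486-Cre and 114 and 134 CPM in MT486-GFP (log2 fold change 0.89, SE 0.18, adjusted p = 0.0217). Acadm had 50.8 and 49.2 CPM against 85.5 and 75.0 CPM (log2 fold change −0.68, SE 0.14, adjusted p = 0.0218). Neither gene's groups overlapped, but neither call held when any 1 of the 4 libraries was left out, and 0 members were then called. With the 4 libraries fitted alone the adjusted p was 0.333 for Cpt1a and 0.375 for Acadm. With the replicate as a block, which keeps same-numbered libraries together, both genes were called. The share of all genes called by the block is not given for MT486. Hadha was at 120 and 115 CPM against 122 and 139 CPM, a log2 fold change of −0.15 (adjusted p = 0.703).

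In DMT populations 2 of 10 members were called, where 9.92% of all genes were. Cpt1a had 224 and 265 CPM in DMT-Cre and 122 and 130 CPM in DMT-GFP (log2 fold change 0.96, SE 0.18, adjusted p = 0.00494). Acadm had 54.9 and 43.9 CPM against 92.3 and 88.5 CPM (log2 fold change −0.87, SE 0.14, adjusted p = 0.00170). Hadha, at 95.9 and 91.1 CPM against 122 and 132 CPM, had a log2 fold change of −0.44 (SE 0.13, adjusted p = 0.0411), under the fold threshold. Both calls held when any 1 of the 4 libraries was left out, but both were lost when the 4 were fitted alone (adjusted p = 0.0752 for Cpt1a and 0.0652 for Acadm). With the replicate as a block both genes were again called. Hadha and Hadh then also had an adjusted p under 0.05, but stayed under the fold threshold. The share of all genes called by the block is not given for DMT.

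**Figure D3:**
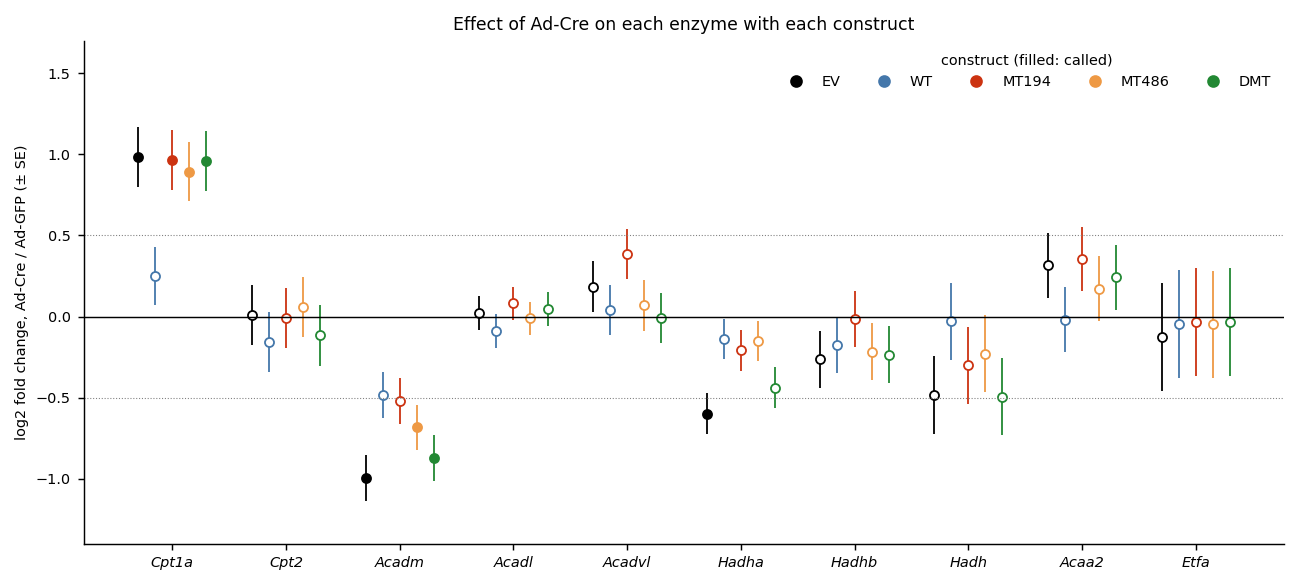
Log2 fold change of Ad-Cre against Ad-GFP (vertical axis) for each of the 10 genes (horizontal axis) in the 5 population constructs, with bars of 1 standard error and filled points for genes called. Cpt1a lies near 1 in EV, MT194, MT486 and DMT and at 0.25 in WT, and Acadm lies between −0.48 in WT and −0.995 in EV.

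Set against EV-Cre directly, WT-Cre had 2 of 10 members called, where 7.37% of all genes were. Cpt1a was lower in WT-Cre (log2 fold change −0.76, SE 0.18, adjusted p = 0.0239) and Acadm higher (0.54, SE 0.14, adjusted p = 0.0328). Hadha, at 118 and 121 CPM in WT-Cre against 84.3 and 91.8 CPM in EV-Cre, had a log2 fold change of 0.44 (SE 0.13, adjusted p = 0.0498), under the fold threshold. Hadh had 80.5 and 69.9 CPM in WT-Cre against 56.0 and 45.2 CPM in EV-Cre, with a log2 fold change of 0.57 (SE 0.24, adjusted p = 0.166). With the replicate as a block Hadh was called too (0.58, adjusted p = 0.000127), which made 3 of 10 where 23% of all genes were called. Leaving out any 1 of the 4 libraries left 0 or 1 member called, and fitting the 4 alone left 0 (adjusted p = 0.101 for Cpt1a and 0.127 for Acadm).

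MT194-Cre, MT486-Cre and DMT-Cre had 0 of 10 members called against EV-Cre, where 0.225%, 0.362% and 0.00724% of all genes were called. By edgeR 0, 1 and 0 members had an unadjusted p under 0.05, as 9.61%, 12.1% and 3.24% of all genes did, and DESeq2 called 0 in each. The log2 fold changes of Cpt1a were −0.04, −0.09 and −0.01, and those of Acadm 0.29, 0.20 and 0.18. The 1 member under 0.05 was Hadha in MT486-Cre (0.42, SE 0.13, adjusted p = 0.168). With the replicate as a block 0 members were called in each. Acadm in MT194-Cre and Hadha in MT486-Cre then had an adjusted p under 0.05, but stayed under the fold threshold. The block's shares of all genes are not given for these comparisons, so its results there are not read as particular to the members.

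Against WT-Cre, Cpt1a was higher in DMT-Cre (log2 fold change 0.75, SE 0.18, adjusted p = 0.0427), the 1 member called where 2.94% of all genes were, and that call did not hold when any 1 of the 4 libraries was left out or when the 4 were fitted alone (adjusted p = 0.150). For MT194-Cre and MT486-Cre against WT-Cre 0 members were called by edgeR, where 1.38% and 0.109% of all genes were, and 1 and 2 members had an unadjusted p under 0.05, as 12.1% and 7.06% of all genes did. DESeq2 called Cpt1a in each, where it called 2.25% and 0.757% of all genes. The log2 fold changes of Cpt1a were 0.72 (SE 0.18, adjusted p = 0.0761) and 0.67 (SE 0.18, adjusted p = 0.236). With the replicate as a block Cpt1a was called in both (0.71, adjusted p = 3.73e-05, and 0.66, adjusted p = 0.000211), where 10.9% and 5.24% of all genes were called. For DMT-Cre the block called 2 of 10, where 14.2% of all genes were, and added Hadh (−0.59, adjusted p = 0.000185), which had a log2 fold change of −0.58 and an adjusted p of 0.237 without it.

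The Cre effects of the constructs were also tested against that of EV as interactions, and 0 of 10 members were called for any construct, where 0.681% of all genes were called for WT and 0.00724% for each mutant. Unadjusted p-values under 0.05 by edgeR numbered 3 for WT, 2 for MT194, 1 for MT486 and 0 for DMT, against 11.7%, 3.22%, 5.18% and 1.15% of all genes, and DESeq2 called 0. For WT the differences of log2 fold changes were −0.73 for Cpt1a (SE 0.26, adjusted p = 0.256), 0.51 for Acadm (adjusted p = 0.309) and 0.46 for Hadha (adjusted p = 0.310). With the replicate as a block Cpt1a (−0.73, adjusted p = 0.000835) and Acadm (0.51, adjusted p = 0.00797) were called for WT, where 13.4% of all genes were, and 0 members were called for MT194, MT486 or DMT, where 0.978%, 2.68% and 0.00724% were. Without Ad-Cre, no construct had a member called against EV-GFP. The share of all genes called there was 0% for WT, MT194 and DMT and 0.00724% for MT486, 0 members had an unadjusted p under 0.05 by edgeR (0.608% of all genes for WT, 2% for MT194, 1.83% for MT486 and 1.27% for DMT), and DESeq2 called 0.

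The other genes of the pathway were taken from 6 lists, and their counts stand here beside the members' own. Of 20 other mitochondrial oxidation enzymes tested in EV, 0 were higher and 3 lower with Ad-Cre, with a median log2 fold change of −0.17, where 5.84% of all genes were called higher and 5.94% lower, the shares to set beside each list in EV. Pccb, a subunit of propionyl-CoA carboxylase, had 19.6 and 15.6 CPM in EV-Cre and 58.5 and 51.9 CPM in EV-GFP (log2 fold change −1.65, SE 0.16, adjusted p = 4.38e-05). Acat1, the thiolase of ketone body and isoleucine breakdown, fell by 0.93 and Acads, the short-chain dehydrogenase, by 0.66 on the log2 scale. The carnitine carrier Slc25a20 (0.37, adjusted p = 0.105), Etfb (−0.00) and Etfdh (−0.29, adjusted p = 0.119), which work directly beside the members, did not pass. With the replicate as a block 1 was higher and 5 were lower, where 25.4% of all genes were called.

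Peroxisomal oxidation, which shortens very long and branched chains, had 0 of 19 genes higher and 4 lower, with a median of −0.39. The peroxisomal transporter Abcd2 fell by 1.41, the 2-hydroxyacyl-CoA lyase Hacl1 by 1.25 and the carnitine acetyltransferase Crat by 0.68 on the log2 scale, and Ehhadh was the other gene called. Abcd2 was at 7.52 and 5.74 CPM in EV-Cre against 16.9 and 18.5 CPM in EV-GFP. Fatty acid uptake and activation had 0 of 10 higher and 4 lower, with a median of −0.38. Dbi, the acyl-CoA binding protein, was at 59.3 and 36.4 CPM in EV-Cre against 165 and 140 CPM in EV-GFP (log2 fold change −1.68, SE 0.27, adjusted p = 0.00140). The acyl-CoA synthetase Acsl3 fell by 1.38 and the binding protein Fabp5 by 1.01 on the log2 scale, and Fabp3 was the fourth.

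Regulators of fatty acid oxidation had 0 of 18 genes higher and 5 lower, with a median of −0.12. Ppargc1b, a coactivator of mitochondrial genes, was at 5.59 and 5.23 CPM in EV-Cre against 14.7 and 14.6 CPM in EV-GFP (log2 fold change −1.44, SE 0.14, adjusted p = 5.50e-05). Its relative Ppargc1a, at 29.1 and 22.3 CPM against 58.6 and 48.2 CPM, fell by 1.05 (adjusted p = 0.0306) and Prkaa2, a catalytic subunit of AMP-activated kinase, by 0.89 (adjusted p = 0.00151) on the log2 scale. Ppara and Acaca, the latter an enzyme that makes malonyl-CoA, were also lower. The list thus pools coactivators with an enzyme whose product restrains the pathway.

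The lists that held genes with higher levels were lipolysis of stored triglyceride and targets of PPAR outside the pathway. In lipolysis 1 of 6 genes was higher and 0 lower, with a median of 0.62, and that gene was the lipid droplet protein Plin2, at 117 and 105 CPM in EV-Cre against 61.7 and 52.2 CPM in EV-GFP (log2 fold change 0.96, SE 0.18, adjusted p = 0.00392). Among PPAR targets 3 of 8 were higher and 0 lower, with a median of 0.68. The acyl-CoA thioesterase Acot2 had 19.0 and 19.1 CPM against 9.34 and 7.31 CPM (1.19, adjusted p = 0.00641). Pdk4, which restrains pyruvate dehydrogenase, rose by 0.68 (adjusted p = 0.0352) and Txnip, a thioredoxin-binding protein, by 0.67 (adjusted p = 0.0189) on the log2 scale. With the block, where 25.4% of all genes were called, 5 of these 8 were higher and Fabp4 was lower.

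**Figure D4:**
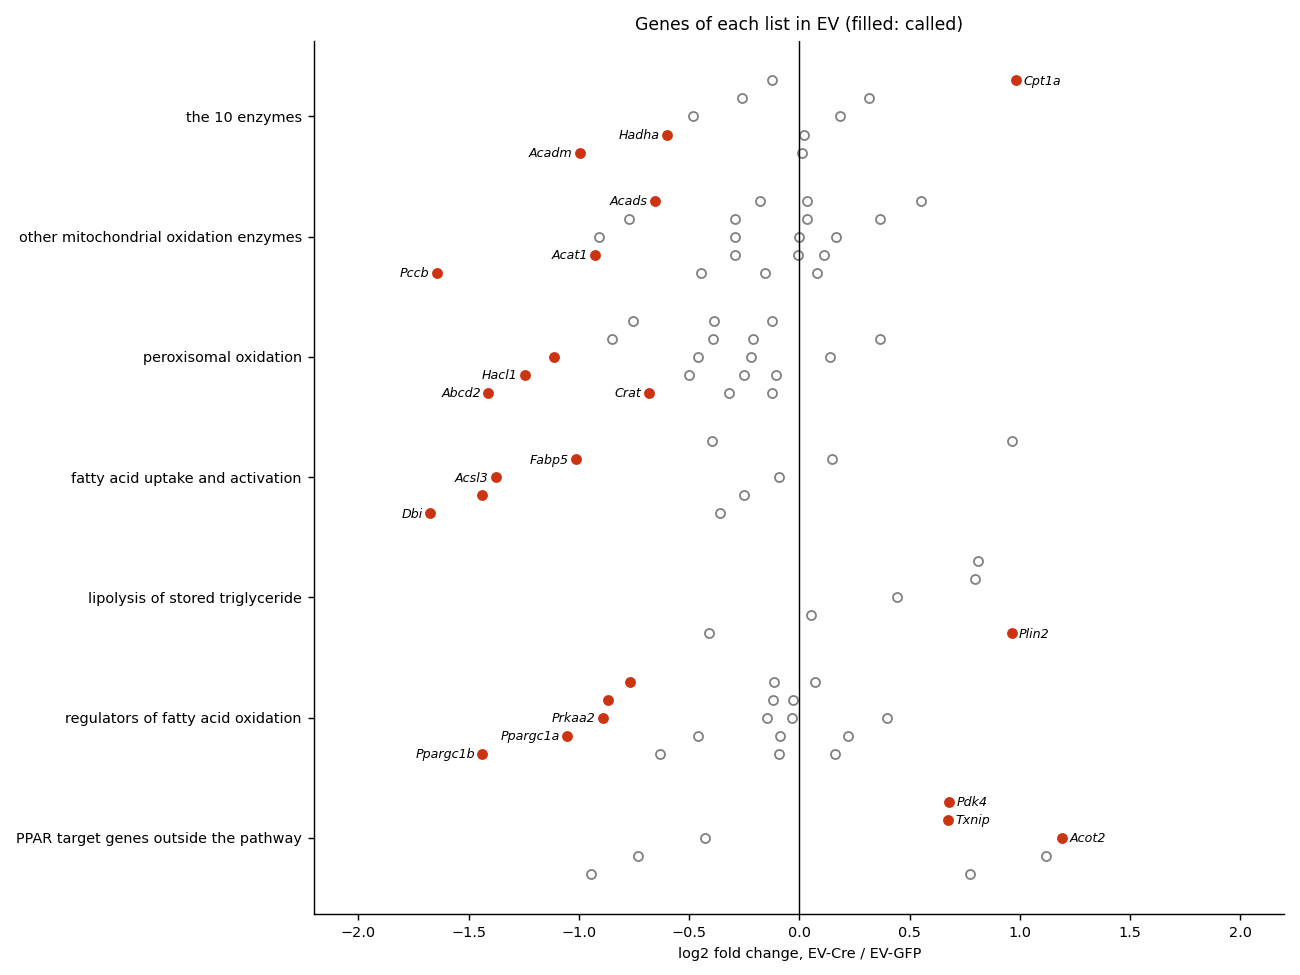
Log2 fold change of Ad-Cre against Ad-GFP in EV (horizontal axis) for the 10 members and the tested genes of the 6 pathway lists, 1 row per list and 1 point per gene, filled where called, with the named genes labelled and other called genes unlabelled. Called genes of the 6 lists lie below 0 in those of oxidation, uptake and regulators and above 0 in those of lipolysis and PPAR targets. Of the called members, Cpt1a lies above 0 and Acadm and Hadha lie below 0.

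With wild-type NELFB 0 genes of any of these lists were called for Ad-Cre against Ad-GFP by edgeR, where 0.0217% of all genes were. In the order mitochondrial, peroxisomal, uptake, lipolysis, regulators and PPAR targets, 1, 3, 1, 0, 3 and 1 had an unadjusted p under 0.05, as 6.22% of all genes did, and DESeq2 called 2, the regulators Ppargc1b and Prkaa2, both lower, where it called 0.309% of all genes. Of the 81 genes tested in the 6 lists 8 were called in MT194 (9.88%, against 4.22% of all genes), 7 in MT486 (8.64%, against 2.42%) and 16 in DMT (19.8%, against 9.92%). Pccb was lower in MT194 (log2 fold change −1.12, adjusted p = 0.00128), MT486 (−1.20, adjusted p = 0.00151) and DMT (−1.42, adjusted p = 0.000136). Ppargc1b was likewise lower in MT194 (−1.32, adjusted p = 0.000283), MT486 (−1.26, adjusted p = 0.000843) and DMT (−1.41, adjusted p = 9.45e-05). Of the PPAR targets 0 of 8 were called in each of the 3 mutants, which at these shares of all genes does not set the list apart. The replicate block called Txnip in MT194 and Acot2 in DMT. The block's shares of all genes are not set beside these calls, so they are not read as particular to the list. Acot2 had log2 fold changes of 0.11, 0.02 and 0.50 and Pdk4 −0.13, 0.11 and −0.05. Whether the Cre effect on these differed from that in EV was tested, and neither gene passed (for Acot2, adjusted p = 1.00, 0.679 and 1.00). The replicate block made Acot2 a call for MT486 (difference −1.17, adjusted p = 0.0414), where 2.68% of all genes were called.

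Against EV-Cre, WT-Cre had 10 of the 67 genes tested in the first 3 lists and the regulators higher and 0 lower, and 3 of the 14 in the other lists lower and 0 higher, where 7.37% of all genes were called. Pccb (log2 fold change 1.35), Dbi (1.34), Fabp5 (1.15), Abcd2 (1.13), Hacl1 (0.89) and Ppargc1b (0.80) were higher in WT-Cre. Acot2 (−1.32), Pdk4 (−0.99) and Plin2 (−0.79) were lower there. As interactions, the Cre effects of WT and EV differed for Pccb (1.30, adjusted p = 0.0193) and Abcd2 (1.17, adjusted p = 0.0485), and for no other named gene of these lists, where 0.681% of all genes were called. Under the replicate block, where 13.4% were, they also differed for Acat1, Hacl1, Dbi, Fabp5, Acsl3, Ppargc1a, Ppargc1b, Plin2, Acot2 and Pdk4, but not past the threshold for Acads, Crat, Prkaa2 or Txnip.

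Replicates 1 and 2 of the populations differed from each other in several members. Replicate 1 was above replicate 2 in all 10 population groups for Etfa (mean log2 difference 0.49), Hadh (0.34), Acaa2 (0.25) and Cpt2 (0.24). It was below in all 10 groups for Cpt1a (−0.21) and Acadvl (−0.17). For Etfa and Cpt2 this was more than the differences between Ad-Cre and Ad-GFP in EV, and the values with the replicate as a block take it into account. The share of reads on no gene was 11.7% to 19.7% (median 15.4%) in the Cre libraries and 12.9% to 21.3% (median 15.7%) in the GFP libraries. It moved with the replicate number, at 11.7% to 15.8% (median 14.2%) in replicate 1 and 15.2% to 21.3% (median 17.95%) in replicate 2, and was higher in replicate 2 in 9 of 10 groups, and its part in the replicate differences was not tested.

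The stable clones tell whether the members differ among lines that grew out without endogenous Nelfb, and there Cpt2 was the 1 member called by edgeR, which needs both the adjusted p and the fold. Cpt2 lies on chromosome 4 from 107903981 to 107923610 on the minus strand. It was at 42.5, 41.4 and 42.6 CPM in the libraries labelled WT, 51.2, 45.8 and 51.4 CPM in MT194, 31.8, 31.0 and 46.2 CPM in MT486, 13.03, 20.6 and 24.5 CPM in WT(N48), and 24.6, 25.4 and 22.3 CPM in Δ-C60. All 9 pLenti clones lay above all 6 pBabe clones, and the vector and the set of clones cannot be told apart here.

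Against WT(N48), Cpt2 was higher in MT194 (log2 fold change 1.35, SE 0.22, adjusted p = 0.00871), the 1 member called where 5.82% of all genes were. With these 6 libraries fitted alone the call was lost (1.36, adjusted p = 0.0583). Cpt1a, at 191, 173 and 206 CPM in MT194 and 141, 139 and 138 CPM in WT(N48), had a log2 fold change of 0.44 (SE 0.12, adjusted p = 0.0464), under the fold threshold. Acadm was at 105, 75.7 and 88.4 CPM in MT194 and at 36.0, 40.7 and 72.3 CPM in WT(N48), a log2 fold change of 0.85 (SE 0.31, adjusted p = 0.104). Clone 3 of WT(N48) stood nearly as high as the lowest MT194 clone, and without it Acadm was called (1.23, adjusted p = 0.0251). All 10 members had a log2 fold change above 0, where 49.96% of all genes tested were below 0. Their median was 0.48, against 0.00 for all genes tested. Against WT(N48), 7 members were above and 3 below 0 in MT486, and 5 and 5 in Δ-C60. Against the libraries labelled WT these counts were 10 and 0 in MT194, 4 and 6 in MT486, and 2 and 8 in WT(N48). Of all genes tested, 47.2% to 52.6% were below 0 in these other comparisons. These counts describe genes read in the same few clones, and both counts for MT194 use the same MT194 clones. Where pLenti clones are set against pBabe clones, the vector differs as well.

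The other comparisons with WT(N48) had no member called. For MT486, where 0.287% of all genes were called, edgeR gave 3 members an unadjusted p under 0.05 (15.1% of all genes). DESeq2 called 1 member where it called 3.17% of all genes, and that was Cpt2, whose log2 fold change by edgeR was 0.91 (SE 0.22, adjusted p = 0.0957). For Δ-C60, where 0% of all genes were called, 0 members had an unadjusted p under 0.05 by edgeR (11.6% of all genes) and DESeq2 called 0, and Cpt2 had the largest difference, 0.31 (adjusted p = 0.608). Cpt1a was at 152, 149 and 158 CPM and Acadm at 50.6, 48.5 and 46.5 CPM in the Δ-C60 clones.

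Between WT(N48) and the libraries labelled WT, of which clones 1 and 3 had little Nelfb for cells said to carry the construct (10.3 and 15.5 CPM), Cpt2 was lower in WT(N48) (log2 fold change −1.12, SE 0.22, adjusted p = 0.0294), the 1 member called where 2.1% of all genes were. Without the 2 libraries labelled WT that have little Nelfb, an alternative added after the data were seen, the log2 fold change was −1.11 and the adjusted p 0.505, with 1 library left in that group. The call was also lost without any 1 of the libraries labelled WT (adjusted p = 0.105, 0.0576 and 0.106 without clones 1, 2 and 3) and without WT(N48) clone 1 (0.0997) or clone 2 (0.0948), and held without WT(N48) clone 3. Against the libraries labelled WT, MT194 had 0 members called where 2.9% of all genes were, 3 with an unadjusted p under 0.05 by edgeR (21.1% of all genes), and 0 by DESeq2. Cpt1a was 0.49 higher on the log2 scale there (SE 0.12, adjusted p = 0.0487), under the fold threshold, and the WT libraries had 130, 127 and 149 CPM. MT486 had 0 called where 0% of all genes were, 2 with an unadjusted p under 0.05 by edgeR (8.89% of all genes), and 0 by DESeq2.

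Single clones stood apart within their groups. In MT486, clone 3 was above clones 1 and 2 for Acadm (57.6 against 26.2 and 28.8 CPM), Acadvl (80.1 against 37.5 and 36.5 CPM), Etfa (83.6 against 48.6 and 50.8 CPM) and Hadha (184 against 115 and 119 CPM), but below them for Acaa2 (40.6 against 55.5 and 56.7 CPM). WT(N48) clone 3 was likewise the highest of its group for Acadm, Acadl, Hadha, Acaa2 and Etfa. For Cpt2, clone 3 was the highest both in MT486 and in WT(N48). Marker levels of the clones spread as well, with the fibroblast sum at 7597 to 26343 CPM, Fabp4 at 0.481 to 58.9 CPM and the muscle gene Myod1 at 13.1 CPM in MT194 clone 1, and their part in these values was not tested.

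**Figure D5:**
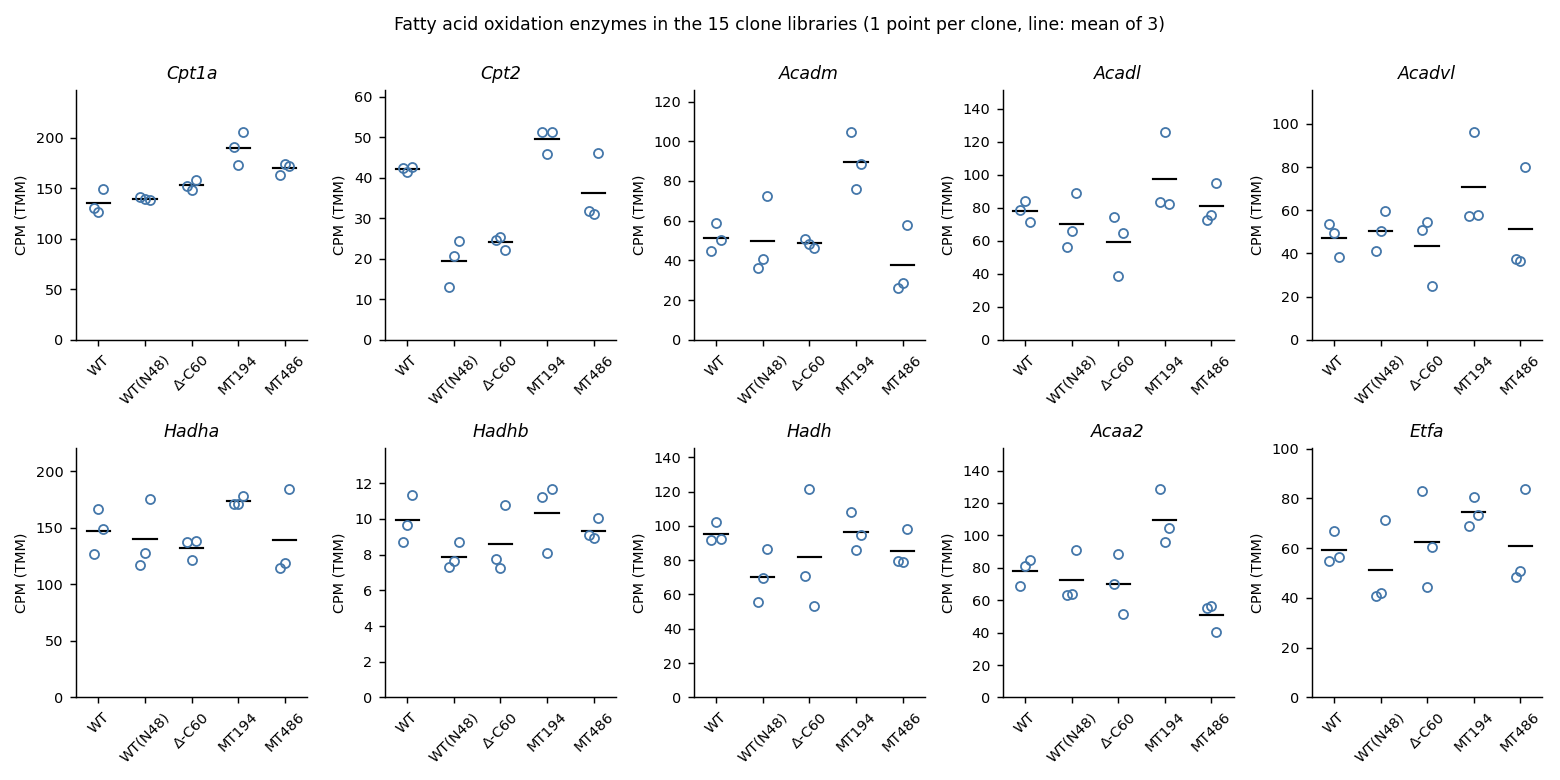
CPM of each of the 10 genes (vertical axis, 1 panel per gene, axes starting at 0) in the 15 clone libraries, grouped on the horizontal axis by construct, each point 1 clone and each line the mean of 3. Cpt2 lies at 13.03 to 25.4 CPM in the WT(N48) and Δ-C60 clones and at 31.0 to 51.4 CPM in the other clones.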

How the data were processed

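The authors aligned TruSeq stranded mRNA reads to mm10 with Bowtie2, handled alignments with SAMtools, skipped those with a mapping quality under 30 and deposited HTSeq read counts per gene, not normalized; they used DESeq2. Bowtie2 does not split reads over introns. Versions and the strand setting of the counting are not given in the sources used here. No 2 libraries were identical. Reads on no gene or ambiguous stayed out of library sizes.

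Counts were analysed with edgeR 4.0.16 (R 4.3.3), in 1 fit of 20 populations (13805 genes after filterByExpr) and 1 of 15 clones (13223 genes), with TMM, 1 mean per group and robust quasi-likelihood tests, adjusted by Benjamini-Hochberg over all genes tested, for 26 comparisons. The standard error is the log2 fold change divided by the square root of F. Alternatives were DESeq2 1.42.0, its size factors, no filter on low counts, other fold thresholds, the compared groups fitted alone, a replicate block, and leaving out each library. Steps were tested on simulated data. Tables and figures used pandas 2.3.3, numpy 2.4.6 and matplotlib 3.10.9 in python 3.11.15.

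Replicate numbers pair the populations: deviations of same-numbered libraries from their group means correlated at 0.420 to 0.730 over genes (median 0.586), over 0.1 in 45 of 45 pairs of groups, and the study describes independent experiments for EV, WT, MT194 and MT486.

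Named were the 10 members, Nelfb, the most abundant gene of each marker list, the 5 genes most like the members' mean, and for every pathway list the 3 genes with the largest rise and fall in EV, if called, not overlapping between groups and averaging 50 counts or more. Other genes were named after their values were seen. Members and lists were chosen with earlier results of these data known. Sequences, positions and windows of 50 bases came from RefSeq and GENCODE vM21. Acaa2's promoter was not used here. A gene of the PPAR target list is not reported here.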

Additional observations from a re-analysis of the deposited data

Results flagged for a closer look

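Cpt1a and Acadm were called for a difference between constructs in the Cre effect with the replicate as a block, 2 of 10 members where 13.4% of all genes were called. The Cre effect on Cpt1a was lower in WT than in EV by a log2 difference of −0.73 (adjusted p = 0.000835, edgeR's quasi-likelihood test), and that on Acadm was higher by 0.51 (adjusted p = 0.00797). Within each replicate number the order held for both genes, and without the block neither passed (adjusted p = 0.256 and 0.309).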

How the results depend on the processing

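Counts of members called rest on 2 libraries a population group and 3 a clone group. In this section the counts under other settings or without 1 library have no share of all genes beside them. They describe the members' own calls and are not compared with all genes here. With DESeq2's size factors in edgeR all 26 counts of members called were the same. A fold threshold over 1 left 0 members called in EV, MT194, MT486, DMT, WT-Cre against EV-Cre and DMT-Cre against WT-Cre. The compared groups fitted alone, with fewer samples for the spread, left 0 in these and in MT194 against WT(N48) clones, and gave 1 (Acadm, 0.81, adjusted p = 0.0498) in MT194 against WT clones. With no filter on low counts 1 was called in MT486 (Acadm had an adjusted p of 0.0560), and 0 in WT-Cre against EV-Cre (Cpt1a 0.0508, Acadm 0.0764) and in DMT-Cre against WT-Cre (Cpt1a 0.0864). With no fold threshold 2 were called in MT194 against WT(N48) clones and 1 in MT194 against WT clones. DESeq2 called 2 in MT194 (Acadm −0.50, adjusted p = 0.0107), 1 in MT194-Cre against WT-Cre (Cpt1a, 0.00340), 1 in MT486-Cre against WT-Cre (Cpt1a, 0.0256) and 1 in MT486 against WT(N48) clones (Cpt2, 0.00707). Without the libraries labelled WT that have little Nelfb, 0 were called in WT(N48) against WT clones. The cause of these shifts was not tested.

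With the replicate block, which takes out the difference between replicate numbers, 2 members were called in MT194, 1 in MT194-Cre against WT-Cre, 1 in MT486-Cre against WT-Cre, 2 in DMT-Cre against WT-Cre and 2 in the interaction of WT with EV; it moved no other count by over 1.5 times. Without 1 library, the lone library of a group being assumed to vary like the others, counts ranged from 2 to 3 in EV, 0 to 1 in MT194, 0 to 0 in MT486, 2 to 2 in DMT, 0 to 1 in WT-Cre against EV-Cre, 0 to 0 in DMT-Cre against WT-Cre, 1 to 2 in MT194 against WT(N48) clones, 0 to 1 in MT486 against WT(N48) clones (1, Cpt2, 1.13, adjusted p = 0.0485, without WT(N48) clone 3) and 0 to 1 in WT(N48) against WT clones (1 only without WT(N48) clone 3). In WT-Cre against EV-Cre 1 was called only without EV-Cre replicate 1. Members under the threshold in EV changed sign: Cpt2 (range −0.20 to 0.19) to −0.20 without EV-Cre replicate 1 and −0.09 without EV-GFP replicate 2, Acadl (range −0.00569 to 0.0437) to −0.00362 without EV-Cre replicate 1 and −0.00569 without EV-GFP replicate 1, and Etfa (range −0.41 to 0.19) to 0.11 without EV-Cre replicate 2 and 0.19 without EV-GFP replicate 1. Depth limits Hadhb most, at 145 to 259 reads per population library.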

Other observations

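In the clones 79 genes of the 6 pathway lists were tested. Against WT(N48), 7 were called in MT194 (8.86%, against 5.82% of all genes), with Acad11 (log2 fold change 1.60), Scp2 (1.67), Ech1 (0.64), Slc27a1 (1.18), Acsl1 (1.01) and Plin2 (1.05) higher and Fabp5 (−2.76) lower. Between WT(N48) and the libraries labelled WT 3 were called (3.8%, against 2.1% of all genes), and WT(N48) had Scp2 (−1.19) and Acsl1 (−1.26) lower and Dbi (0.94) higher than the libraries labelled WT. Against the latter, 4 were called in MT194 (5.06%, against 2.9% of all genes), with Ech1 (0.71), Slc27a1 (1.17) and Plin2 (1.19) higher and Acaca (−0.81) lower.

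Scp2, the sterol carrier protein of peroxisomal oxidation, is the next tested gene to Cpt2 on its side of higher coordinates on chromosome 4, from 108043839 to 108144998, and was looked at after its values were seen. It had 35.5, 24.4 and 28.0 CPM in the libraries labelled WT, 39.1, 44.7 and 38.7 CPM in MT194, 23.0, 26.8 and 26.8 CPM in MT486, 9.13, 17.7 and 11.7 CPM in WT(N48), and 22.0, 16.0 and 17.4 CPM in Δ-C60. The MT486 clones lay just above the highest Δ-C60 clone. On the other side of Cpt2 the next tested gene, 0610037L13Rik, had a log2 fold change of −0.33 in WT(N48) against the libraries labelled WT and was not called. Of the 10 tested genes nearest to Cpt2, 9 had a log2 fold change below 0 in WT(N48) against the libraries labelled WT, and 1 (Scp2) was called, where 48.6% of all genes tested were below 0 and 2.1% were called. In MT194 against WT(N48) 4 of the 10 were below 0 and 2 were called, where 49.96% of all genes tested were below 0 and 5.82% were called, with Scp2 called higher and Lrp8 (−1.26, adjusted p = 0.0430) called lower.

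Over the 10 population group means, the genes most like the mean of the members were 2410015M20Rik (Pearson r 0.93), 1700096K18Rik (0.88), Tcf7l1 (0.88), Bcr (0.88) and Ndufb10 (0.87), a description of groups that share replicate numbers.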
